A study of Mus musculus with 2 samples.

Results

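The exchangers and cotransporters of the Slc4, Slc8, Slc9, Slc12, Slc24 and Slc26 families move sodium, potassium, chloride, calcium, protons, bicarbonate and sulphate across membranes by coupling one ion to another. Members were the protein-coding genes whose symbol begins with Slc4a, Slc8a, Slc8b, Slc9a, Slc12a, Slc24a or Slc26a, which gave 51 of the 21900 protein-coding genes in the RefSeq table of mouse genes. Of these, 48 encode carriers and 3 encode adaptors that share the symbol, namely Slc4a1ap (kanadaptin), Slc9a3r1 (NHERF1) and Slc9a3r2 (NHERF2). The data come from methylated RNA immunoprecipitation sequencing of polyA RNA from the uterus of wild-type mice, in which fragments carrying N6-methyladenosine (m6A) are pulled down with an antibody against the mark. The females were 6 to 8 weeks old at mating and were taken on gestational day 4, counting the day of the vaginal plug as day 1, and the labels call the cells mixed. The m6A IP group has 1 sample and the input group has 1 sample, so no difference can be set against a spread between animals and no test across samples was made.

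These carriers set cell pH, cell volume, intracellular chloride and the removal of calcium. In epithelia the bicarbonate and chloride carriers work with channels and the sodium pump to secrete or absorb fluid, and the uterine epithelium is known to absorb luminal fluid around the time of implantation. In smooth muscle, sodium-calcium exchange at the surface membrane takes part in removing calcium after contraction. The methyl mark on mRNA is known to lie mostly near stop codons, in 3′ untranslated regions and in long internal exons, where reader proteins bind it and affect the stability and translation of the message.

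The deposited list holds 26584 peaks on the mm10 build, all carrying the run name D8NegIP-Posinput. That name does not match the labelled day, and the sources do not say whether the labelled input was the control in peak calling. The name also joins NegIP to Posinput, so whether the IP and its control came from the same group cannot be told. All fold enrichments given here rest on that control. A peak was given to a gene if the summit fell inside that gene's span and inside no other. Fold enrichment is the peak caller's ratio of IP pileup plus 1 to background plus 1 at the summit. Its brackets are 95% exact Poisson intervals of the pileup with the background taken as known, which cover counting error only. The IP pileup had a median of 18 fragments over all peaks and ranged from 3 to 361. The tissue could be checked against markers by their peaks alone. All 6 uterine genes looked at had one, among them Pgr with a fold enrichment of 13.8 and Hand2 with 29.5, as had 5 of 6 epithelial, 6 of 6 stromal, 4 of 5 smooth muscle and 5 of 5 endothelial markers. Of the immune markers 2 of 5 had a peak, and none of the 6 red blood cell, 3 embryo and 3 ovary markers had one. The red cell gene Alas2 and the smooth muscle gene Tagln had summits only in shared spans. These counts stand beside the 40.9% of all protein-coding genes with a peak, and a gene without a peak may still be expressed.

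Peaks were found in 22 of the 51 members (43.1%, Wilson interval 30.5 to 56.7), against 8950 of 21900 protein-coding genes, or 40.9%. The members' share was thus close to that of genes at large. The Wilson interval treats genes as independent draws and covers no spread between animals or libraries. Without the 3 adaptors it was 19 of 48 carriers, or 39.6%. A further 3 members had a summit only where their span overlaps another gene, and 26 had no summit at all. The highest fold enrichment per gene had a median of 9.01 over the 22 members with a peak (quartiles 6.90 and 12.1), against 9.29 over all protein-coding genes with a peak (quartiles 6.59 and 13.1). Read depth in genes that lack a peak was not analysed here, and in whole tissue a transcript made in few cells cannot be told apart from one made weakly in many.

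Members were long genes, and longer genes held a peak more often. The members with a peak had a median span of 60.6 kb and those without one 40.2 kb, while over all protein-coding genes these medians were 28.2 and 11.3 kb. Within each class of span the members' share lay below that of all protein-coding genes. It was 6 of 11 members over 100 kb (54.5%) against 65.7% of genes of that span, 10 of 22 members of 30 to 100 kb (45.5%) against 52.7%, and 6 of 16 members of 10 to 30 kb (37.5%) against 43.3%. Neither of the 2 members under 10 kb had a peak of its own, where 23.7% of genes did. These classes hold few members, and the differences were not tested.

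**Figure D1:**
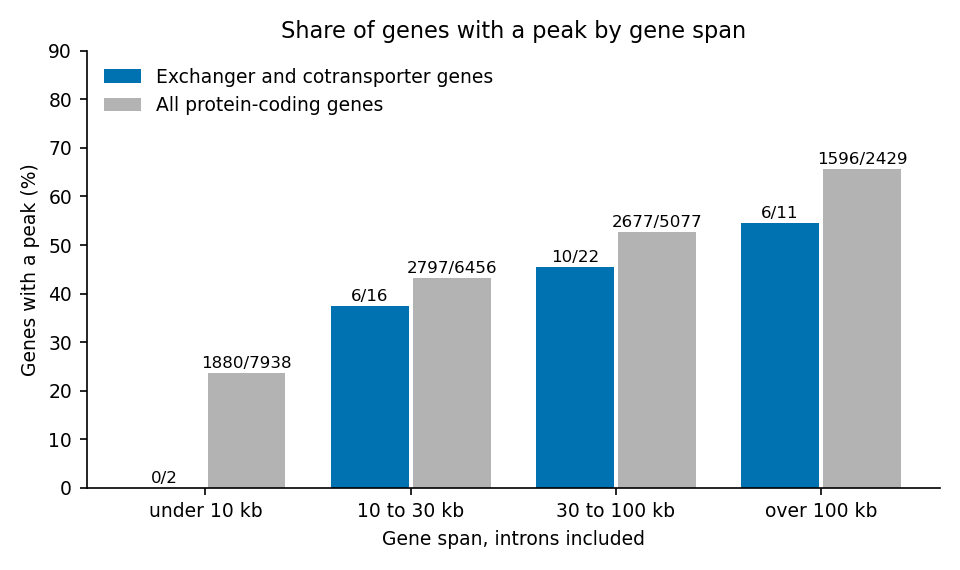
Share of genes with a peak, in percent, by class of gene span with introns included. Blue bars are the 51 exchanger and cotransporter genes, grey bars all 21900 protein-coding genes, and the fractions above the bars give genes with a peak over genes in the class; the blue bar is the lower one in each class.

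The cation-chloride cotransporters of the Slc12 family set intracellular chloride and cell volume. Of the 9 members, 6 had a peak (66.7%), with 12 peaks among them. Counts by family, here and below, stand beside the 40.9% of all protein-coding genes with a peak. Median spans ran from 35.0 kb in Slc4a to 138 kb in Slc24a. Of all protein-coding genes, 52.7% of those of 30 to 100 kb and 65.7% of those over 100 kb had a peak. The families are small, and their shares were not tested.

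Slc12a2 encodes NKCC1, the cotransporter that loads cells with sodium, potassium and chloride and feeds chloride secretion in epithelia. It had 5 peaks on chromosome 18. The strongest, at 57878592 to 57879537 near the low-coordinate end, had a fold enrichment of 18.9 (14.5 to 24.4) from 58 fragments over 2.11. The peak nearest the other end, at 57943812 to 57944670, had 10.5 (8.12 to 13.4) from 64 fragments over 5.19. Between them lay peaks of 6.55 (4.54 to 9.17), 10.3 (6.97 to 14.7) and 5.74 (3.91 to 8.16), each 205 to 258 bp wide. The interval of the strongest peak overlapped that of only 1 of the other 4, the one at 10.3, and barely so. The strongest was picked from these same 5 peaks, and the differences were not tested.

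Slc12a8, whose product is named as a cotransporter by sequence, had 9.84 (5.57 to 16.3) from 13 fragments over a background of 0.423, at chromosome 16, 33624728 to 33625159. Slc12a9 (CIP1), another distant relative in the family, had 9.29 (5.78 to 14.2) near its 3′ end and 4.08 (1.94 to 7.86) from 7 fragments further up. The potassium-chloride cotransporter genes Slc12a7 (KCC4) and Slc12a4 (KCC1), whose products let chloride out of many cell types, had strongest peaks of 8.55 (5.60 to 12.6) and 7.86 (5.19 to 11.5). Slc12a7 had a further peak of 5.55 beside its strongest. In Slc12a4, Slc12a7 and Slc12a9 the strongest summits lay 294, 1536 and 726 bp from the 3′ end of the span. No peak lay in Slc12a1 (NKCC2) or Slc12a3 (NCC), known as kidney cotransporters, or in Slc12a5 (KCC2), known as a neuronal one.

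Sodium-proton exchangers raise cell pH or, in endosomes and the Golgi, set the pH of the compartment. Of the 11 genes with the Slc9a prefix, 5 had a peak, 2 of them the adaptor genes. The organelle exchanger gene Slc9a9 (NHE9, endosomes) had 11.7 (7.09 to 18.3) from 17 fragments over 0.538 at chromosome 9, 95228882 to 95229445. That summit was 1448 bp from the 3′ end of a span of 561 kb, the longest among the members. Slc9a7 (NHE7, Golgi) had 5.03 (2.20 to 10.6) from only 5 fragments, the lowest strongest value among the members, but 26.0 without the 1 added to pileup and background. The scaffold gene Slc9a3r2, whose PDZ domain protein tethers exchangers to the cytoskeleton through ezrin, had 12.3 (9.79 to 15.2) from 82 fragments over 5.77 at chromosome 17, 24639979 to 24640469. Its relative Slc9a3r1 had 8.73 (4.94 to 14.5) and 7.85 (5.50 to 10.9) at neighbouring sites. No peak lay in the epithelial surface exchanger genes Slc9a2, Slc9a3 and Slc9a4, in Slc9a5, or in the organelle exchanger gene Slc9a8.

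Bicarbonate carriers of the Slc4 family exchange chloride for bicarbonate or carry it with sodium. Peaks lay in 4 of 11 genes with the prefix, and the highest value belonged to the adaptor gene Slc4a1ap, with 17.3 (13.1 to 22.6) from 53 fragments over 2.11 at chromosome 5, 31527885 to 31528180. Its 3 peaks all had summits within 3834 bp of the 5′ end of a 35.0 kb span. Among the carriers, Slc4a2 (AE2), a chloride-bicarbonate exchanger of most epithelia, had 7.27 (4.52 to 11.2) from 19 fragments over 1.75 at chromosome 5, 24439791 to 24439998, and 6.82 (4.01 to 11.0) further up. Slc4a7 (NBCn1), which brings in bicarbonate with sodium, had 7.17 (4.14 to 11.7) from 14 fragments over 1.09 at chromosome 14, 14792049 to 14792370. Slc4a8 (NDCBE), a sodium-driven chloride-bicarbonate exchanger, had 5.06 (2.31 to 10.2) from 6 fragments. The intervals of the 3 carriers overlap throughout. Slc4a1, the band 3 exchanger of red blood cells, had no peak, nor had Slc4a3, Slc4a4 (NBCe1), Slc4a5, Slc4a9, Slc4a10 and Slc4a11.

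The Slc26 family carries sulphate, chloride, bicarbonate and other anions, and 3 of its 11 members had a peak of their own. Slc26a2, the sulphate carrier needed to sulphate proteoglycans in cartilage, had 3 peaks on chromosome 18. The strongest, at 61202007 to 61202452, had 11.2 (7.14 to 16.9) from 21 fragments over 0.961. The others had 9.32 (6.05 to 13.8) at 61197568 to 61198560 and 4.59 (2.27 to 8.55) between them. Slc26a6 (PAT1), an apical exchanger of epithelia, had 6.81 (3.25 to 13.1) from 7 fragments over 0.175 at its 5′ end, chromosome 9, 108854046 to 108854535. Slc26a8, known from the testis, had 5.87 (2.69 to 11.8) from 6 fragments over 0.192 at chromosome 17, 28638207 to 28638591, with the summit 621 bp from its 3′ end. At such backgrounds the 1 added to the background makes up most of the divisor.

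Shared spans held the other summits of this family. A peak of 12.8 (8.64 to 18.3), 1709 bp wide with 28 fragments, lay at chromosome 5, 108671377 to 108673085, inside both Slc26a1, a sulphate carrier gene, and Idua, which encodes a lysosomal enzyme. RefSeq places them on opposite strands, and the peaks carry no strand, so the transcript cannot be named. In the overlap of Slc26a10 and B4galnt1 lay peaks of 4.10 and 3.51. No summit was found in Slc26a3 (DRA), Slc26a4 (pendrin), Slc26a5 (prestin), Slc26a7, Slc26a9 or Slc26a11.

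Sodium-calcium exchangers of the Slc8 family export calcium, and 3 of 4 members had a peak. Slc8a1 (NCX1), the exchanger of heart and smooth muscle, had 7 peaks on chromosome 17, more than any other member. The strongest, at 81512442 to 81512812, had 16.4 (12.5 to 21.0) from 59 fragments over 2.66. The deepest, at 81647830 to 81649715, was the widest of all members at 1886 bp and held 121 fragments over a background of 11.0, for a fold enrichment of 10.2 (8.48 to 12.2). Its other 5 peaks lay between 9.07 (6.18 to 12.9) and 9.94 (5.38 to 17.1). Their pileups ran from 11 to 39 fragments and their backgrounds from 0.208 to 3.38. The narrow range depends on the 1 that the deposited ratio adds to pileup and background. Without it the 5 had 11.5 to 53.0, and the peak of 11 fragments at 53.0 stood above the 22.1 of the peak at 81512442.

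The related exchanger genes, best known from brain and skeletal muscle, rested on few fragments. Slc8a2 had 3 peaks of 7 fragments each on chromosome 7. The strongest, at 16144784 to 16145010, had 6.81 (3.25 to 13.1) over a background of 0.175, and the others had 5.78 (2.76 to 11.1) and 3.71 (1.77 to 7.16). Without the added 1 the strongest had 40.0, as had that of Slc26a6, above 27.4 in Slc12a2 and 25.1 in Slc4a1ap. Both values of 40.0 rested on 7 fragments over 0.175, the lowest background among the members' peaks. The same 0.175 recurs at Slc8a3 and, outside the members, at Car3. Whether it is a floor of the peak caller or a local background was not tested. Slc8a3 had 1 peak of 5.96 (2.73 to 12.0) from 6 fragments over 0.175 at chromosome 12, 81314618 to 81315634. Slc8b1 (NCLX), the exchanger of the mitochondrial membrane, had none. Of the potassium-dependent exchangers of the Slc24 family, Slc24a3 alone among 5 had peaks of its own. Slc24a1 of rod photoreceptors, the neuronal Slc24a2, Slc24a4 and the pigment cell gene Slc24a5 had none, apart from a summit of 6.22 (3.28 to 11.0) that Slc24a2 shares with the pseudogene Gm34039.

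Slc24a3 had 6 peaks on chromosome 2 along a span of 474 kb. The strongest lay at 145641186 to 145641870, with the summit 490 bp from the 3′ end, and had 11.1 (8.40 to 14.5) from 53 fragments over 3.84. The next one upstream had 6.27 (4.37 to 8.73) from 33 fragments. The other 4 held 5 to 13 fragments and had 6.50 (3.68 to 10.8), 5.12 (2.84 to 8.65), 4.11 (2.22 to 7.08) and, at the 5′ end, 3.66 (1.60 to 7.73). A further summit, of 4.40 (2.38 to 7.58), shares its place with the long non-coding RNA gene Gm52528 and was not counted.

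**Figure D2:**
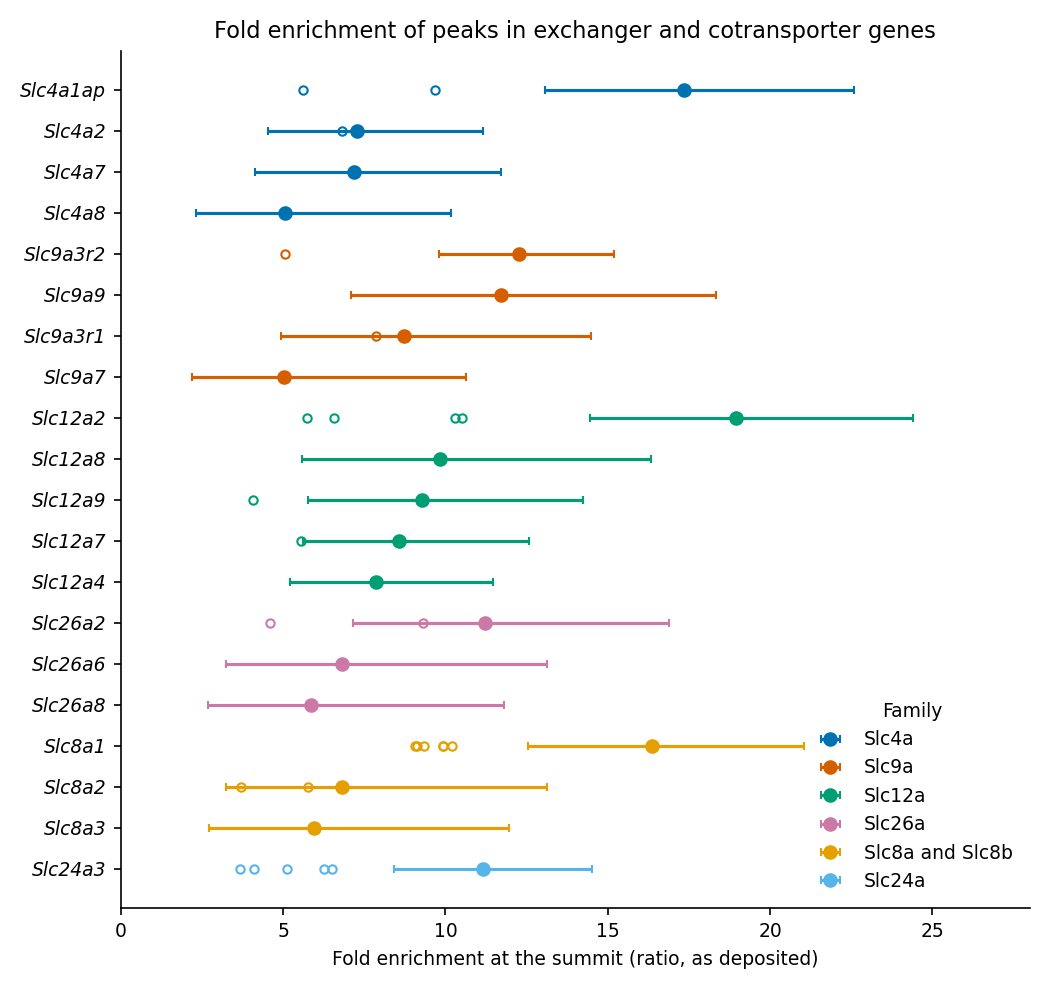
Fold enrichment (ratio) of every peak in 20 of the 22 members with a peak, grouped by family. Filled points are each gene's strongest peak with its 95% counting interval and open points its other peaks; Slc12a2 at 18.9, Slc4a1ap at 17.3 and Slc8a1 at 16.4 lead those shown on the deposited scale, an order that changes without the added 1 (Slc8a1 53.0, Slc8a2 and Slc26a6 40.0), and genes resting on 5 to 7 fragments such as Slc9a7 and Slc26a8 have the widest intervals for their value.

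**Figure D3:**
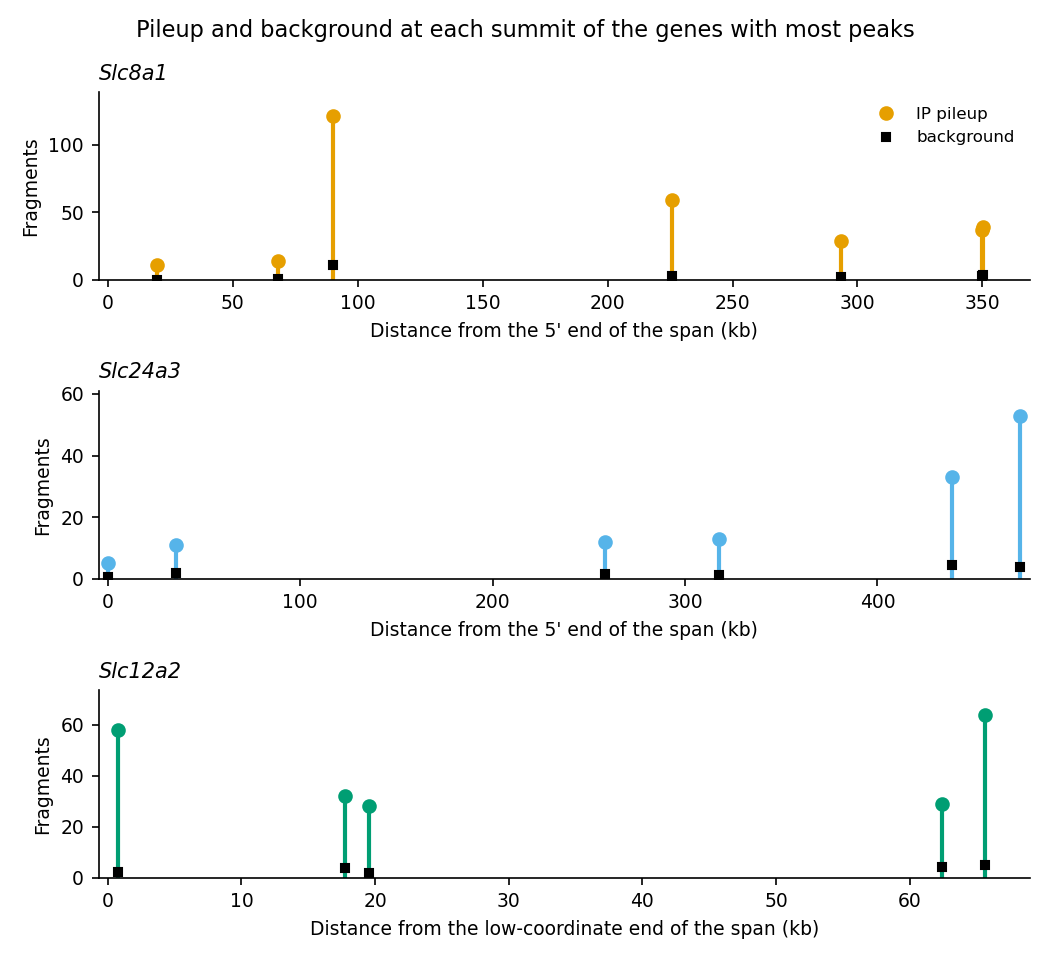
IP pileup (coloured stems) and background (black squares), in fragments, at each summit of Slc8a1, Slc24a3 and Slc12a2, against distance along the span in kb. Slc8a1 has its deepest summit at 121 fragments 89981 bp from the 5′ end, Slc24a3 at 53 fragments near the 3′ end, and Slc12a2 has 58 and 64 fragments near the 2 ends of its span.

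Measured as a share of the span, summits of the members lay near its ends more often than those of protein-coding genes at large. Of their 49 summits, 28 (57.1%) fell within 10% of the span of either end, against 41.0% of the 21038 summits in protein-coding genes. Strand is given in the RefSeq promoter table for 38 of the members' summits. Of these, 15 (39.5%) were in the last 10% of the span, against 29.3% for all genes with a strand, and 7 (18.4%) in the first 10%, against 11.6%. Taking only the strongest summit of each gene, 9 of 18 members (50%) had it in the last 10%, against 33.2%. In bases, the members' summits lay further from the 3′ end, at a median of 18018 bp against 7115 bp for all genes. For the strongest summits these medians were 4881 and 3936 bp. The differences were not tested, since summits of a gene are not independent and the members' spans are longer. The median span was 83.7 kb per summit against 40.4 kb. Exons were not used here, so a summit inside a span may be exonic or intronic.

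**Figure D4:**
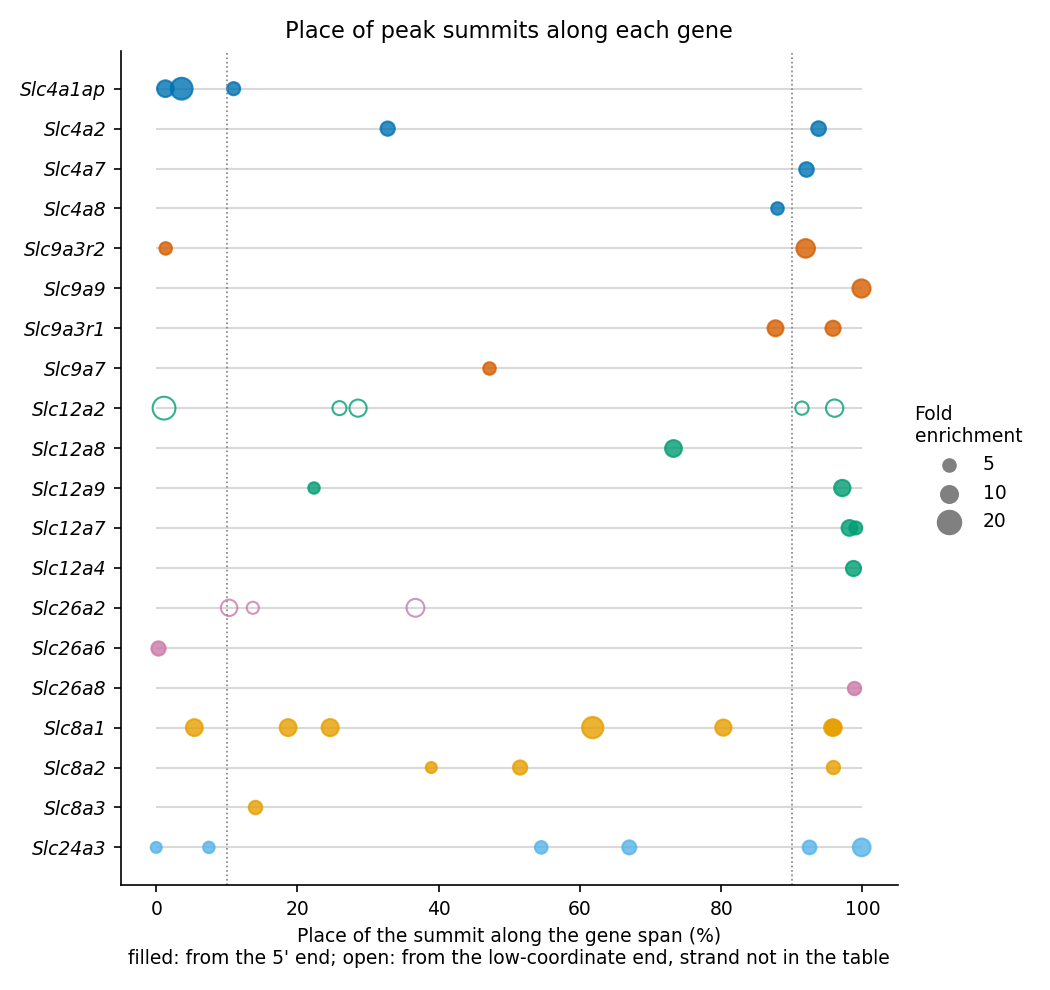
Place of each summit along its gene span, in percent, in the same 20 members, with point area growing with fold enrichment and dotted lines at 10% and 90%. Filled points are measured from the 5′ end and open points, for genes without a strand in the table, from the low-coordinate end; of the 38 filled points 15 lie beyond 90% and 7 before 10%.

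RefSeq promoter windows, which run from 250 bases before an annotated start to 50 after it, were given for 38 of the 51 members. A peak overlapped such a window in 4 of them (10.5%), against 7.72% of 17492 protein-coding genes with a window. These 4 are printed to show where peaks overlap the window, with the bases covered by the peak in capitals and the annotated start at base 251. The peaks of Slc4a1ap and Slc24a3 cover that start. Those of Slc26a6 and Slc9a3r2 do not, and begin past it at bases 254 and 272. All are RefSeq sequence of GRCm38.p6, 5′ to 3′ on the strand of the gene. The windows are chr5:31526745-31527044 on the plus strand for Slc4a1ap, chr9:108853793-108854092 on the plus strand for Slc26a6, chr17:24650256-24650555 on the minus strand for Slc9a3r2 and chr2:145167525-145167824 on the plus strand for Slc24a3.
Slc4a1ap: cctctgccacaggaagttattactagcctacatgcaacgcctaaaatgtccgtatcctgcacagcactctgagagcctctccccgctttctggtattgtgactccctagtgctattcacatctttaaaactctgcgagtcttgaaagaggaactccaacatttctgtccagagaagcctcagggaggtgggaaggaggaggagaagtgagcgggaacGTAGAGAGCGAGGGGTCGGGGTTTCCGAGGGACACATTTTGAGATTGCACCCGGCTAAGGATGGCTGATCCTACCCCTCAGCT
Slc26a6: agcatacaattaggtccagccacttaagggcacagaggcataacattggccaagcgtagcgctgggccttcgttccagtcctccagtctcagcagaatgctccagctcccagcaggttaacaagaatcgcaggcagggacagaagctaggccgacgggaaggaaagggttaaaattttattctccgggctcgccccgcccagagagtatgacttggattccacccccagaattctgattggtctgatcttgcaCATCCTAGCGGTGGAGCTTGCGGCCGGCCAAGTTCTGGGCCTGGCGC
Slc9a3r2: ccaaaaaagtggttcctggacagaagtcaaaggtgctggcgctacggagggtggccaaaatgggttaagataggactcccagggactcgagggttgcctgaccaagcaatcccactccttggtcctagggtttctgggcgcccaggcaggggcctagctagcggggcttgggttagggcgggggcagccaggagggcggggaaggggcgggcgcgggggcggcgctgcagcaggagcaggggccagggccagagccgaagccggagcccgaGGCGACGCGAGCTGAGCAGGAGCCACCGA
Slc24a3: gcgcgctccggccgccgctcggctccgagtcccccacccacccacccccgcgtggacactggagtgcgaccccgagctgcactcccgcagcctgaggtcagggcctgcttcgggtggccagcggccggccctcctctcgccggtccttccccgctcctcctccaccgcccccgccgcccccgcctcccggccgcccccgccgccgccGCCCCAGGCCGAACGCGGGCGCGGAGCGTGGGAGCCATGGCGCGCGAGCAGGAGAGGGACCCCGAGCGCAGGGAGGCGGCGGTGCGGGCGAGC

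The peak of Slc4a1ap there had a fold enrichment of 9.69 (5.95 to 15.0) from 18 fragments. It began before the annotated start and covered 83 bases of the window, with its summit 242 bp past the start. The RefSeq span of Slc4a1ap begins further upstream than this start, and the summit lay 456 bp from the span's 5′ end. The whole peak thus lies inside the span. In Slc26a6 the peak of 6.81 covered the last 47 bases, and in Slc9a3r2 a peak of 5.06 (2.31 to 10.2) from 6 fragments covered the last 29. Slc24a3 was the member whose summit came closest to a start, 15 bp past it, with 93 bases covered and only 5 fragments. The letters GGACT and GGACA, forms of the sequence in which the m6A writer is known to work, were searched on both strands. Within the bases in capitals one match was found, GGACA on the sense strand of Slc4a1ap, with its first letter at position -4 where the annotated start is position 1. Over their whole 300 bases, 45.5% of all 32851 windows in the table held GGACT and 47.9% held GGACA on either strand. Of the 49 windows of members, 26 held GGACT and 26 held GGACA. The bases in capitals are far fewer, so these shares are no expectation for them. No position can match both on 1 strand. These matches describe the letters only.

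The members' peaks had much the same depth as those of other genes. Their IP pileup had a median of 18 fragments (range 5 to 121), against 20 over all peaks in 1 protein-coding gene, and their background a median of 1.54 (0.175 to 11.0) against 1.65. Of the 49 peaks, 12 (24.5%) rested on fewer than 10 fragments, against 15.9%. The median peak was 356 bp wide in members and 335 bp in all, and 7 of the 49 were wider than 800 bp, against 15.8% of all.

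**Figure D5:**
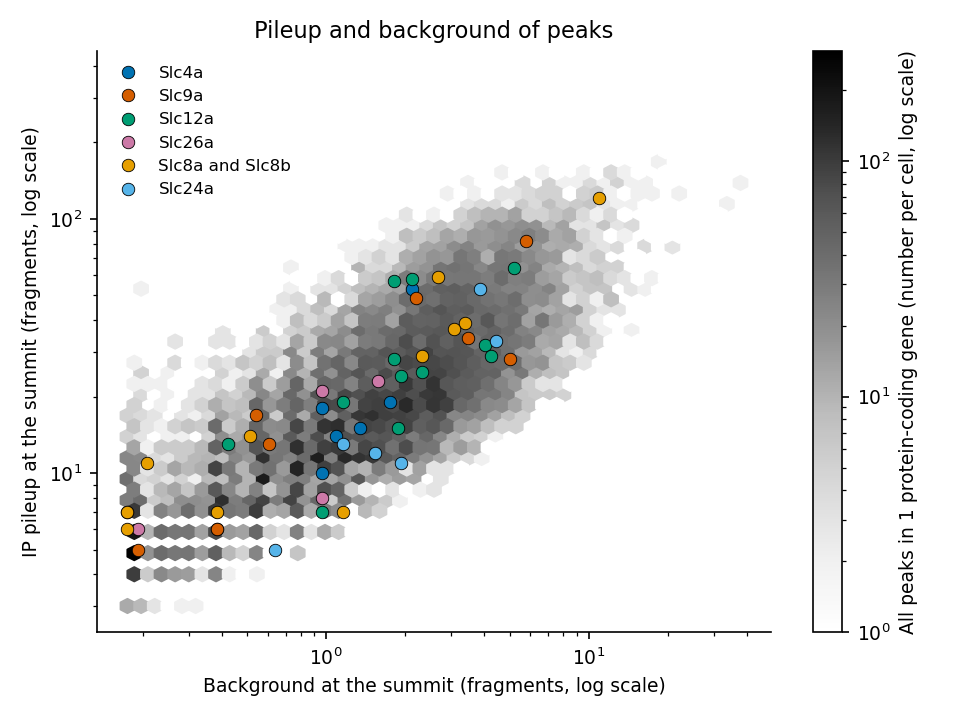
IP pileup against background at the summit, both in fragments on log axes, for the 49 peaks of the members (coloured by family) over all 21038 peaks in 1 protein-coding gene (grey cells, darker for more peaks). The members' points lie within the grey cloud, with Slc8a1 at 121 fragments the highest and several points of Slc8a2, Slc8a3, Slc26a6, Slc26a8 and Slc9a7 at its lower left edge.

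With no allowance for gene span, other solute carriers had peaks about as often. Of the 324 other Slc genes, 136 had a peak (42.0%, 36.7 to 47.4), with a median strongest fold enrichment of 8.44. The mitochondrial Slc25a carriers had 21 of 47 (44.7%) with 7.69, and the amino acid and neurotransmitter carriers of Slc1a, Slc6a, Slc7a and Slc38a had 19 of 55 (34.5%) with 8.17. These are shorter genes, with median spans of 26.9 kb, 21.5 kb and 34.9 kb in that order. The members' medians were 60.6 kb with a peak and 40.2 kb without one, so the shares do not compare genes of like span. The interval of the members' share, 30.5 to 56.7%, holds the shares of all 3 groups. It makes no allowance for span, and the differences were not tested.

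Genes that work with the exchangers and cotransporters were looked at as lists, and 32 of 67 matched genes (47.8%) had a peak, near the 40.9% of all protein-coding genes. Their median strongest fold enrichment was 8.15, against 9.29 over all protein-coding genes with a peak. The single lists are small, and their shares, from 25% of carbonic anhydrases to 85.7% of calcium pumps, stand beside the same 40.9% and were not tested. Of the 12 kinases and ubiquitin ligase parts that act on Slc12 cotransporters, 9 (75%) had one. Klhl3, the adaptor that hands WNK kinases to a ubiquitin ligase, had 17.8 (11.9 to 25.5), and Wnk2, a kinase of the family, had 13.0 (8.36 to 19.4). Nedd4l, a ubiquitin ligase of sodium transport, was lowest with 4.82 (2.46 to 8.71). Stk39, the SPAK kinase that phosphorylates the cotransporters, Sgk1 and Cab39l had none, whereas Oxsr1, the close relative of Stk39, had 12.2 (8.69 to 16.7).

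Calcium pump genes had peaks in 6 of 7 cases (85.7%), from 12.4 (9.33 to 16.2) in Atp2b1 and 12.0 (8.40 to 16.6) in Atp2b4, both pumps of the surface membrane, to 4.33 (1.89 to 9.15) in Atp2a1, the pump of fast skeletal muscle, with none in Atp2b3. The sodium pump, which builds the gradient these carriers use, had peaks in its beta subunit genes Atp1b1 with 10.2 (6.34 to 15.6), Atp1b2 with 6.58 (3.56 to 11.3) and Atp1b3 with 6.11 (4.55 to 8.03).

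Scaffolds and partners of exchangers had peaks in 5 of 9 cases (55.6%). Ezr, the gene of ezrin, which links the NHERF scaffolds to actin, had 17.7 (12.9 to 23.6), Chp1, an obligatory partner of surface sodium-proton exchangers, 7.92 (4.17 to 14.0), and Ahcyl1, the regulator IRBIT, was lowest with 4.84 (2.84 to 7.78). Tesc and Ahcyl2 had no summit, and those of Pdzk1 and Fxyd1 lay in shared spans. Carbonic anhydrase genes, some of whose products make the bicarbonate that Slc4 and Slc26 carriers move, had peaks in 4 of 16 cases (25%). These were Car3 with 12.8 (7.37 to 20.8), Car2 with 11.8 (8.49 to 16.1), Car12 with 6.30 (4.35 to 8.87) and Car4 with 4.82 (2.78 to 7.86). The value of Car3 came from 14 fragments over a background of 0.175. Car1, Car5a, Car5b, Car6 to Car11 and Car13 to Car15 had none.

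Channels of epithelial fluid had peaks in 5 of 16 cases (31.2%). Cftr, the chloride and bicarbonate channel of secreting epithelia, had 21.0 (13.7 to 30.8) from 24 fragments over a background of 0.192. Ano1, a calcium-activated chloride channel, had 10.1 (6.36 to 15.4). The genes of the sodium channel that absorbs fluid had peaks in the alpha subunit, Scnn1a with 8.94 (4.71 to 15.8), and in the beta subunit, Scnn1b with 6.04 (3.34 to 10.2), which was the lowest of the list, but not in Scnn1g. Among the water channel genes listed, Aqp11 had a peak of 6.34 (3.24 to 11.5). Aqp1 to Aqp4 and Aqp7 to Aqp9 had no summit, Aqp5 had summits only in shared spans, and Clcn2 and Clca1 had none.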

How the data were processed

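Uterine polyA RNA of 1 m6A IP sample and 1 input sample was extracted with TRIzol and made into directional libraries, per the labels' protocols. The submitters' processing notes name HISAT2 2.2.1, MACS3 3.0.0a7 and mm10, without options or any word on pooling. The 1 peak list analysed here belongs to the IP sample. Fold enrichment is deposited as a ratio, p-values and q-values as −log10, and the deposited score is 10 times −log10 q. The lowest −log10 q was 1.31. These values were inverted to give pileup and background at each summit, which yielded a whole pileup, within 0.05 of a step, in 99.97% of peaks. The inversion was tested on data simulated from the same formula, over a narrower range of pileup and background than the peaks have. That test cannot show that the deposited values follow the formula. Spans came from a RefSeq table of GRCm38.p6, the assembly of mm10, and strand from its promoter windows. A motif search around summits, in the design, was replaced by one in promoter windows, since no genome was used. Members, lists and the naming rule (the 3 strongest members of each family, every peak of members with 4 or more, and for each partner list the 2 highest, the lowest and the genes without a peak) were chosen with earlier results of these data known. A few genes count in the totals but are not reported here. Intervals treat amplified fragments as independent. Scripts ran in Python 3.11.15 with pandas 2.3.3, numpy 2.4.6, scipy 1.17.1 and, for plots, matplotlib 3.10.9.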

Additional observations from a re-analysis of the deposited data

How the results depend on the processing

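No paired analysis was possible because each group has 1 sample and the input sample has no file used here. Members with a peak numbered 20 with −log10 q of at least 5, where 37.5% of all protein-coding genes had one, and 22 with fold enrichment of at least 4 (40% of all genes) or any overlap with the span (40.7%). They numbered 21 with 50% overlap (40.9%) and 25 with shared summits counted for each gene (44.9%). With a pileup of at least 10 they numbered 16 (35.7%), which drops Slc8a2, Slc8a3, Slc4a8, Slc9a7, Slc26a6 and Slc26a8. Counting shared summits gave 5 Slc26a and 2 Slc24a members with a peak, and the pileup minimum left 1 Slc26a and 1 Slc8 member. The members' median strongest fold enrichment was 7.52 when each gene's peaks were reduced to their median and 23.7 with no pseudocount, where a low background weighs most: Slc8a1 then reached 53.0, at its peak of 11 fragments. Ends of 5% of the span held 42.9% of the members' summits, a narrower window by construction, against 27.2% for all protein-coding genes. With no pseudocount another peak became the strongest in 3 of the 12 members with several peaks, Slc4a2, Slc8a1 and Slc9a3r2. Of 44 values for single members with no pseudocount or with each gene's median peak, 24 left their counting interval, 18 of them with no pseudocount and 6 with the median peak. The 123 values under the filters and other peak assignments say little about stability, since a filter keeps a gene's strongest peak or drops the gene.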
